A study of Mus musculus with 16 samples.

Results

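The Cyp2a genes of the mouse, Cyp2a4, Cyp2a5, Cyp2a12 and Cyp2a22, encode cytochrome P450 enzymes and lie in a cluster of P450 genes on chromosome 7. Their open chromatin was read from DNase-seq of liver nuclei, in which DNase I releases fragments from accessible DNA, and places where such fragments pile up are called DNase hypersensitive sites (DHS). All 4 protein-coding genes were used, out of 22380 in the mm9 annotation, and a DHS was assigned to a gene when it overlapped the gene or its flanks of 20 kb on either side. Under this rule the 4 genes held 3 of the 51482 DHS regions formed by joining peaks of all lists that overlapped by at least 1 bp.

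The livers came from 8-week-old (per the labels) male and female mice of 2 inbred strains, C57BL/6J (B6), the strain of the mouse reference genome, and CAST/EiJ (CAST), a wild-derived strain of a different subspecies. The labels name no engineered allele and no treatment, and the nuclei of all groups were digested with 32 U of DNase I. The 16 libraries, 4 of each sex and strain, were merged by group before peaks were called, so the data were 4 lists: male B6, female B6, male CAST and female CAST. There was thus a single measurement per group and no spread between livers, and every comparison below is between lists.

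Cytochrome P450 enzymes are heme proteins of the endoplasmic reticulum that oxidise drugs, toxins and steroids with electrons passed on by a reductase. Cyp2a5 is the mouse coumarin hydroxylase and also oxidises nicotine, Cyp2a4 and Cyp2a12 hydroxylate testosterone, and Cyp2a22 is a close relative of Cyp2a12 whose substrates are less well known. In mouse liver many P450 genes differ between the sexes because growth hormone is released in a pulsatile pattern in males and more continuously in females. A DHS at a promoter or in an intron marks DNA that is free for transcription factors to bind, and it does not by itself measure transcription.

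Open chromatin at these genes was sparse and lay mainly at 1 gene. Cyp2a12 had a DHS at its promoter and another in its second intron, and both were called in male B6 and male CAST liver and in neither female list. Cyp2a5 had a single weak DHS near the far end of its upstream flank, called in male CAST liver alone. Cyp2a4 and Cyp2a22 had no DHS within 20 kb in any list.

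The genes form 2 pairs of near copies, and the promoters are shown because a DHS was called at 1 of the 4 only. In coding sequence Cyp2a4 and Cyp2a5 were identical at 98.45% of aligned positions, with 23 differences, and Cyp2a12 and Cyp2a22 at 96.96%, with 45 differences, whereas members of different pairs were identical at 75.02% to 76.31%. Each sequence below is the 250 bp before the annotated start, read 5′ to 3′ along the gene from the mm9 reference, which is B6 sequence, so CAST variants are not shown. Capitals mark bases that differ from the partner gene, or have no partner base, within the stretch where both align.
Cyp2a4, chr7:27091959-27092208, plus strand: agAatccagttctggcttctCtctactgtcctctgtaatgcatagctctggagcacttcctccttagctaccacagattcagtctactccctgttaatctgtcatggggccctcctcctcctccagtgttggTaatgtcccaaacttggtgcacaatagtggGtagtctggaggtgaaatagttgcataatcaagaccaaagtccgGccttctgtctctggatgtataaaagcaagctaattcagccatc
Cyp2a5, chr7:27620074-27620323, plus strand: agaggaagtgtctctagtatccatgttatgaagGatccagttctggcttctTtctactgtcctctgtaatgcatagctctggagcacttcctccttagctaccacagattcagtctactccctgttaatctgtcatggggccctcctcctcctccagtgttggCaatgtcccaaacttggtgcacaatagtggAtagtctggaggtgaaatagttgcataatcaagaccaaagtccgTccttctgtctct
Cyp2a12, chr7:27813859-27814108, plus strand: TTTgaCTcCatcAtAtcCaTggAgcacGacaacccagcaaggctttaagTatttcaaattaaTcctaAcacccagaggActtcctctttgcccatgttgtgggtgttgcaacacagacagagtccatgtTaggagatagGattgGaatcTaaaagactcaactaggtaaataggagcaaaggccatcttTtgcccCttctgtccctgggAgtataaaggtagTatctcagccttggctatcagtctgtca
Cyp2a22, chr7:27724406-27724655, minus strand: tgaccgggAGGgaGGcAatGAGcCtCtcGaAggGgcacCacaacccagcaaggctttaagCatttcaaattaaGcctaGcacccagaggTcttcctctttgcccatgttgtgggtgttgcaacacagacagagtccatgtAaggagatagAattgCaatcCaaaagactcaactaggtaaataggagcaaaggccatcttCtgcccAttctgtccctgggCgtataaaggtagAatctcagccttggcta

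The Cyp2a4 and Cyp2a5 promoters were identical at 214 of 219 aligned positions. The differences were A3G, C21T, T133C, G163A and G207T, with the Cyp2a4 base first and positions counted from 1 at the 5′ end of its printed sequence. The Cyp2a12 and Cyp2a22 promoters were identical at 88.8% of aligned positions, with 24 substitutions and 3 gap positions. Many of these lay in the first bases of the printed sequences, farthest from the start site. The cut at 250 bp limits the alignment there. The first bases of the printed Cyp2a22 sequence also occur in the Cyp2a12 promoter peak, just upstream of the printed Cyp2a12 sequence. Capitals in these first bases can therefore pair bases that do not correspond. The local alignment of the male B6 promoter peak given below had 19 differences and 16 gap positions. Start sites are those of the GENCODE annotation of mm9. The RefSeq start, found by matching RefSeq promoter sequence to mm9, was the same for Cyp2a12 and Cyp2a22 and lay 2 bp farther downstream for Cyp2a4 and 34 bp for Cyp2a5.

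**Figure D1:**
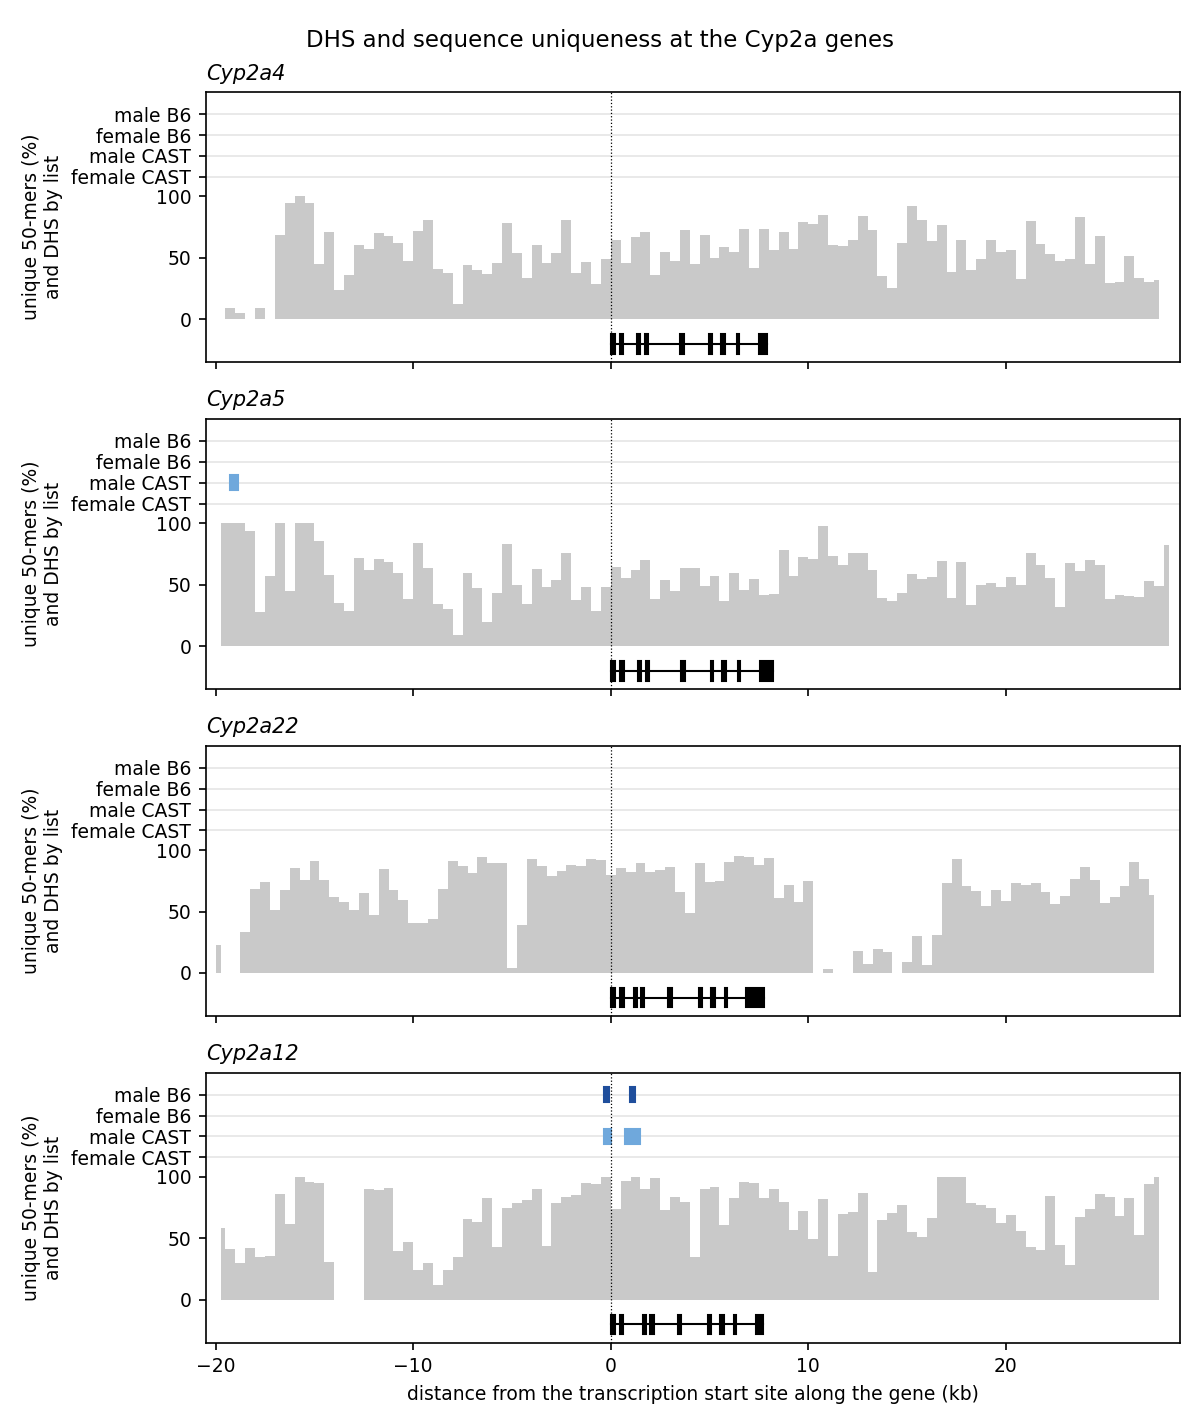
Map of the 4 genes drawn along their own strands, with distance from the start site in kb on the horizontal axis. Grey steps give the percentage of 50-mers in each 500 bp bin that occur once in mm9, black boxes are exons, and coloured boxes are DHS in the 4 lists; DHS sit at the start of Cyp2a12 in both male lists and nearly 20 kb upstream of Cyp2a5 in male CAST, and no other DHS falls in any window.

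Cyp2a12 spans chr7:27814109-27821826 on the plus strand. Its promoter DHS region covered chr7:27813753-27814107, 355 bp of intergenic sequence that ended 2 bp before the start site. In male B6 liver the promoter peak was 284 bp wide with its summit 193 bp upstream of the start site, and its fold enrichment, the ratio of summit pileup to background that the authors deposited, with a pseudocount of 1 added to both, was 3.61. In male CAST liver it was 347 bp wide, its summit lay 314 bp upstream and its fold enrichment was 2.49. The male B6 value stood near the middle of its list, higher than 52.2% of all male B6 peaks, and the male CAST value was higher than 17.7% of male CAST peaks. The summit pileup, recovered from the deposited fold enrichment and p-value, was 58 fragments in male B6 (exact Poisson 95% interval 44.0 to 75.0) and 37 in male CAST (26.1 to 51.0). These intervals cover counting error in the pooled reads only.

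The intron DHS region covered chr7:27814834-27815590, 757 bp within intron 2 of Cyp2a12, beginning 725 bp downstream of the start site. In male B6 liver it was a narrow peak of 249 bp with a fold enrichment of 2.32, and only 3.56% of male B6 peaks were narrower. In male CAST liver the peak was 757 bp wide with a fold enrichment of 3.41, so the CAST peak set the borders of the region. The summits lay 1083 bp and 1275 bp downstream of the start site in male B6 and male CAST, 192 bp apart, and the pileups were 37 fragments (26.1 to 51.0) and 51 fragments (38.0 to 67.1). The order of the 2 peaks thus differed between the strains, with the promoter peak the higher in male B6 and the intron peak the higher in male CAST, although the counting intervals of the pileups overlapped.

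**Figure D2:**
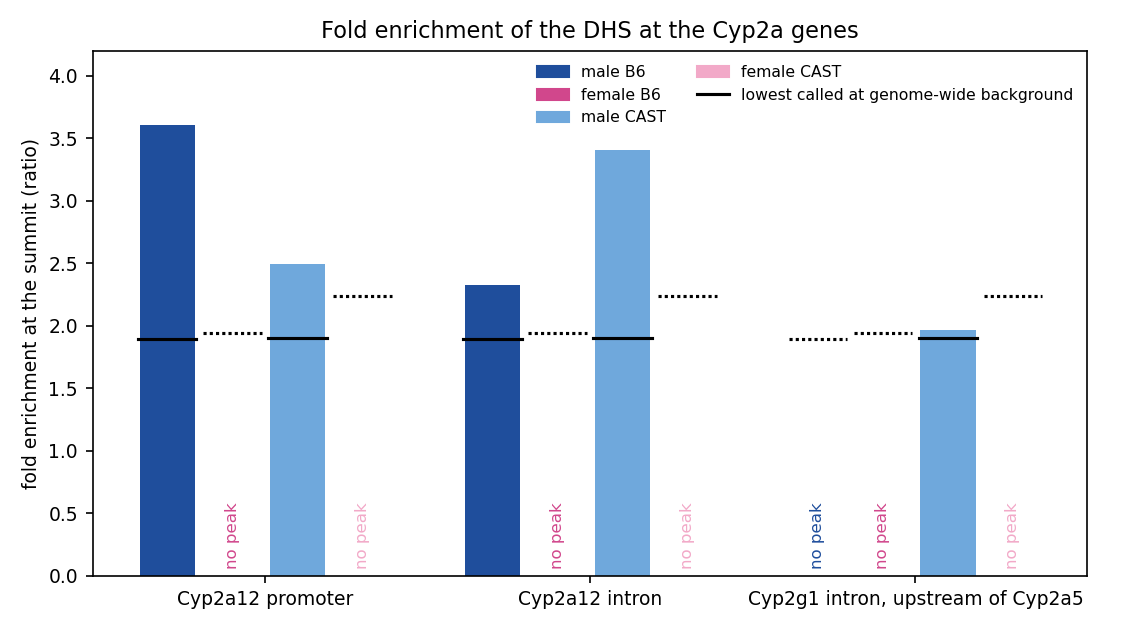
Fold enrichment at the summit (vertical axis, a ratio, from 0) of each DHS in each list. Bars are called peaks, "no peak" marks lists without one, and horizontal lines give the lowest fold enrichment called in that list at its genome-wide background, dotted where no peak was called; at Cyp2a12 both male lists have bars of 2.32 to 3.61 and both female lists have none.

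Both Cyp2a12 regions belonged to the class found in both male lists and neither female list, which held 9.38% of all regions in the series. The male lists were longer than the female lists, and with each list cut to its 24888 strongest peaks only the promoter peak of male B6 was kept, so neither region was then in both male lists. None of the Cyp2a12 peaks passed a stricter threshold of 15.7 on the −log10 q-value. None of the 3 regions was found in all 4 lists, against 35.6% of all regions. Of all protein-coding genes, 2.15% had DHS in both male lists and none in either female list within the same window, as Cyp2a12 did. Each of the regions was made of nearly unique sequence, with 99.7% of 50-mers unique in mm9 at the promoter and all of them in the intron.

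A peak missing from a female list does not give its level, and the female lists were shallower, with a median summit pileup of 61 fragments in female B6 and 47 in female CAST against 79 in male B6 and 78 in male CAST. The weakest peak that was called at the genome-wide background had a fold enrichment of 1.94 in female B6 and 2.24 in female CAST, against 1.90 in each male list. Over the regions called in both sexes, male fold enrichment was 1.32 times the female value in B6 (median of 23644 regions) and 1.19 times in CAST (22764 regions). On the female B6 scale the promoter peak of male B6 would stand at 2.73, above the lowest value called there at the genome-wide background. Relative to shared regions, male B6 would be at least 1.41-fold higher than female B6 at this promoter. This holds only if every site above the lowest called value was called. On the female CAST scale the promoter peak of male CAST would stand at 2.09, under the lowest value called, and a sex difference was not detectable at this depth.

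At the intron DHS the strains were the other way round. The male CAST peak would stand at 2.86 on the female CAST scale, above the lowest value called. On the same condition it would be at least 1.28-fold higher than in female CAST. The male B6 peak would stand at 1.76 on the female B6 scale, below the lowest value called, so no sex difference could be read for B6. The lowest called value is that of the weakest peak, which does not show that every stronger site was called. These lower bounds also assume the genome-wide background at the site in the female list. They carry no counting error, and neither reached the 1.5-fold used as a threshold. Without the scaling to shared regions they were 1.86-fold for the promoter in B6 and 1.52-fold for the intron in CAST, and the other 2 male peaks also stood above the lowest value called in the female list, by 1.11-fold for the promoter in CAST and 1.20-fold for the intron in B6. That no difference was detectable for these 2 therefore holds with the scaling only.

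Male peaks of like strength show how often a female peak went with them. Of the 5109 male B6 regions whose fold enrichment was within 10% of that of the promoter DHS, 70.6% also had a peak in female B6 (Wilson 95% interval 69.3% to 71.8%), which the promoter DHS lacked. Of the 5698 male CAST regions as strong as the intron DHS, 48.7% (47.4% to 50.0%) had a peak in female CAST. For the weaker peak of each strain a missing female peak was the usual case, since 16.3% (15.4% to 17.2%) of the male CAST regions as strong as the promoter DHS and 18.9% (17.98% to 19.85%) of the male B6 regions as strong as the intron DHS had a female peak.

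The strains could be compared in males only, because no region at these genes had a peak in both lists of any other comparison. After centring on the median of the 29099 regions called in both male lists, where B6 fold enrichment was 0.947 times the CAST value, the Cyp2a12 promoter was 1.53-fold higher in male B6, a log2 difference of 0.61. It was 1 of the 4.49% of shared regions that were higher in male B6 by 1.5-fold or more. The ratio of centred summit pileups was 1.51 with an exact 95% interval of 0.986 to 2.35, so a ratio of 1 was within counting error. The intron DHS was 1.39-fold higher in male CAST, with a centred log2 difference of B6 over CAST of -0.48. This missed the 1.5-fold that 6.68% of shared regions passed in that direction, and its pileup ratio of 0.701 (0.446 to 1.09) also included 1. In the intron the male CAST summit lay 192 bp from the male B6 summit and outside the male B6 peak. The intron ratio therefore compares the highest points of the region and not the same bases. The call at the promoter stood close to the threshold and was lost without centring.

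Short motifs of liver transcription factors were looked up in the printed promoters and in the male B6 peak of each Cyp2a12 region, on both strands. The motifs were TTCNNNGAA for STAT5, CAAAGTCCA for HNF4, TTGCNNAA for C/EBP, TTANGTAA for the D-box bound by DBP, CCAAT for NF-Y, ATCAAT for HNF6, TGTTTAC for FOXA and the half-site GTTAAT for HNF1. The Cyp2a12 promoter held 1 match, CCAAT on the minus strand with its first base 110 bp upstream of the start site, inside the promoter peak of male B6. NF-Y, which binds CCAAT boxes, is a general promoter factor, and CCAAT occurs in 35.0% of all promoters of this length. The substitution G145C, with the Cyp2a12 base first and positions counted as above, falls in this match, and the Cyp2a22 promoter held no match to any motif. The Cyp2a4 and Cyp2a5 promoters both held TTGCATAA, a C/EBP match found in 9.16% of all promoters, and GTTAAT, found in 5.75%. In Cyp2a4 these began 68 bp and 158 bp upstream of the start site, and in Cyp2a5 37 bp and 127 bp upstream. No match to STAT5, HNF4, D-box or FOXA letters was in any of these sequences, and matches to different motifs did not overlap. These letters occur in 6.83% (STAT5), 0.398% (HNF4), 2.02% (D-box) and 2.73% (FOXA) of all promoters, so a missing match is the usual case.

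The male B6 intron peak is shown because it holds the summit in that list and has no long counterpart in the partner gene. The summit of the stronger male CAST peak, at chr7:27815384, lies past the end of this sequence and was not searched for motifs. Capitals mark ATTGG, which is CCAAT read on the minus strand and begins 1107 bp downstream of the start site, and ATCAAT, the letters searched for HNF6, at 1130 bp.
Cyp2a12 intron, chr7:27815103-27815351, plus strand: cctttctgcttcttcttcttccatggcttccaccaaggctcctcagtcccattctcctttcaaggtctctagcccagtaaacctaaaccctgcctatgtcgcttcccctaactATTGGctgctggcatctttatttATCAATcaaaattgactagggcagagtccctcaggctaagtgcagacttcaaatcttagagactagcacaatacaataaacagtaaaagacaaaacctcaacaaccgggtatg

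Among male B6 peaks reduced to this length around their summits, 30.4% held CCAAT and 10.3% held ATCAAT. A match is a description of the letters and not evidence of binding.

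Cyp2a22 spans chr7:27716650-27724405 on the minus strand and lies head to head with Cyp2a12. It had no DHS within 20 kb in any list, and the nearest was the Cyp2a12 promoter DHS, 89.3 kb from its start in male B6 and 89.4 kb in male CAST. The nearest DHS was 156 kb away in female B6 and 138 kb in female CAST. Its promoter was as unique as that of Cyp2a12, with 99.5% of 50-mers found once in mm9 for each. The counterpart of the male B6 promoter peak was found at chr7:27724467-27724714, where 264 of the 284 bases aligned at 86.7% identity, and no list had a peak there. The intron DHS had no such counterpart, since the best local alignment of its 249 bp male B6 peak to Cyp2a22 and the 3 kb before it covered 25 bases, and that of the 757 bp male CAST peak covered 53 bases.

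Cyp2a5 spans chr7:27620324-27628567 on the plus strand. Its only DHS was at chr7:27601045-27601468, 424 bp that lie in intron 5 of Cyp2g1, a P450 gene of the olfactory mucosa, and 18.9 kb from the Cyp2a5 start. The peak was called in male CAST alone, with a fold enrichment of 1.97 and a pileup of 29 fragments (19.4 to 41.6), and only 1.47% of male CAST peaks were weaker. Regions found in male CAST alone were 15.2% of all regions. Among the 2611 male CAST regions of like strength, 28.9% had a peak in male B6 and 7.70% (6.74% to 8.78%) in female CAST, so its absence from these 2 lists is not a measured difference. The peak was lost when the lists were scaled to the lowest depth, and also with flanks of 10 kb, and Cyp2a5 then had no DHS in any list. All 50-mers of this region were unique. The promoter and body of Cyp2a5 held no DHS in any list.

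Cyp2a4 spans chr7:27092209-27100107 on the plus strand and was the farthest from a DHS in every list but female B6. The nearest DHS was 224 kb from its start in male B6, 79.2 kb in female B6 and 201 kb in each CAST list. In male B6, 89.5% of protein-coding genes had a nearer DHS, and in female B6 76.7%. The female B6 site, at chr7:27012599-27013032 in intergenic sequence, had a fold enrichment of 2.41. It was the only case among the 4 genes in which the female list of a strain held a nearer DHS than the male list by more than 1 kb.

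**Figure D3:**
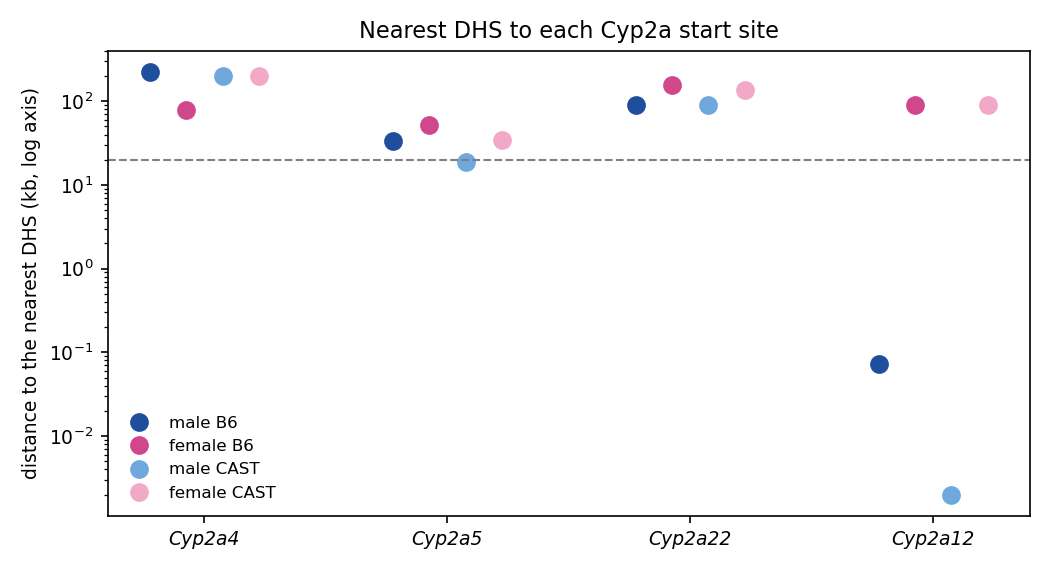
Distance from each start site to the nearest DHS (vertical axis in kb, log scale) for the 4 lists, with a dashed line at 20 kb. Cyp2a12 has points at 0.073 kb (male B6) and 0.002 kb (male CAST) and near 89.1 kb in both female lists, and every other point but that of Cyp2a5 in male CAST lies above 20 kb.

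Sequence that Cyp2a4 and Cyp2a5 share limits what their missing DHS can show. Only uniquely placed reads were kept by the authors, and of the 50-mers in the Cyp2a4 window 53.5% were unique in mm9, against 57.5% for Cyp2a5, 62.4% for Cyp2a22 and 67.1% for Cyp2a12. At the printed promoters the share was 69.2% for Cyp2a4 and Cyp2a5, against the 99.5% of Cyp2a22 and Cyp2a12. Of the 50-mers of the Cyp2a4 window, 33.1% also occurred in the Cyp2a5 window, whereas 9.06% of those of Cyp2a22 occurred in the Cyp2a12 window. No member promoter of 250 bp was under 50% unique, as 5.89% of all promoters were. Over the 500 bp before the start site the share was 49.0% for Cyp2a4 and 48.4% for Cyp2a5, against 99.8% for Cyp2a12. These shares count exact single 50-mers of mm9, whereas the reads were paired and CAST reads were aligned to a CAST version of the genome, so they describe the sequence and do not measure which reads were placed. The part of sequence identity in the missing DHS of Cyp2a4 and Cyp2a5 was not tested.

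Set against all protein-coding genes, 2 of the 4 Cyp2a genes (3 with lists scaled to the lowest depth) had no DHS within 20 kb, as did 25.1% of genes. Of the 4, 1 had a promoter DHS, within 2.5 kb of a start site, against 54.3% of genes. The median gene had 2 regions in its window over all lists (quartiles 0 and 5). With only 4 genes, these shares are descriptions.

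The gene cluster around them held other DHS. The stretch from the Cyp2a4 window to the Cyp2a12 window, chr7:27072209-27841826, is 769.6 kb long and held 6 regions, of which 5 had a peak in B6 males and 6 in CAST males, against 1 in B6 females and 3 in CAST females. Of all regions in the series, 74.6% had a peak in B6 males and 76.2% in CAST males, against 50.0% in B6 females and 47.3% in CAST females, and 3 of these 6 regions are the ones described above. The other 3 regions were intergenic. The strongest, at chr7:27568056-27568751, was in all 4 lists, with a fold enrichment of 8.20 (male) and 5.08 (female) in B6 liver and of 6.18 (male) and 5.36 (female) in CAST liver. The other 2, at chr7:27566541-27567272 and chr7:27585923-27586505, were in every list but female B6. Both DHS of female liver nearest to Cyp2a12 lay downstream of it, at chr7:27903231-27903496 in female B6 and chr7:27903192-27903557 in female CAST, with fold enrichments of 1.92 and 2.63. The female B6 value is under the 1.94 given above because its local background was 16.7 fragments, higher than the genome-wide 13.9, and at a higher background a lower ratio can be called.

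**Figure D4:**
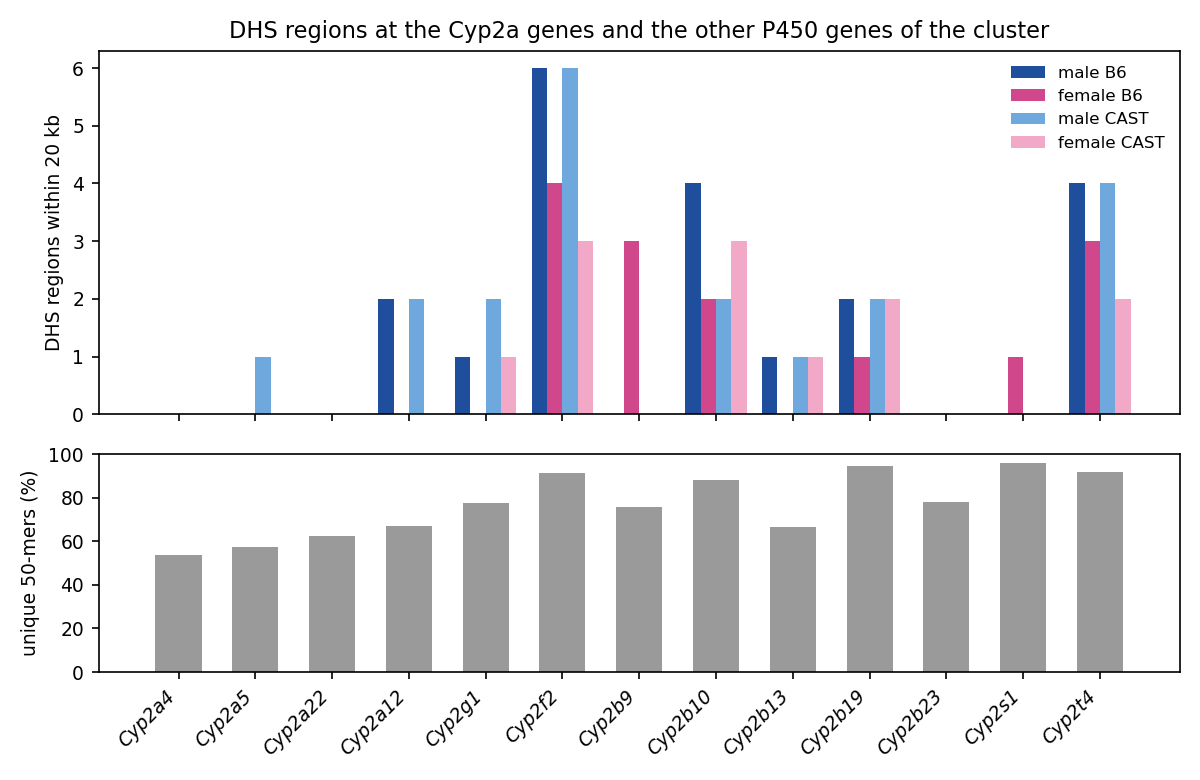
Number of DHS regions in the 20 kb window of each P450 gene of the cluster, by list (upper panel), and the percentage of unique 50-mers in that window (lower panel). The 4 Cyp2a genes, at the left, have 0 to 2 regions and 53.5% to 67.1% unique 50-mers, and Cyp2f2 has the most regions, 6 in each male list.

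Among the 9 other P450 genes of the cluster, 8 had a DHS in their window, with a median of 2 regions and a range of 0 to 7. In each list 6 of the 9 had a DHS, and of the 4 Cyp2a genes 1 had a DHS in B6 males, 2 had one in CAST males and 0 in either female list. Of all protein-coding genes, 71.0% had a DHS in their window in B6 males, 71.1% in CAST males, 66.2% in B6 females and 64.6% in CAST females, so the share of the other P450 genes was close to that of all genes. Cyp2f2, a P450 of lung and liver, had 6 regions in each male list, 4 in female B6 and 3 in female CAST. Cyp2b9 had 3 regions in female B6 and none in the other lists. Cyp2b13, whose window was 66.7% unique and so about as repeated as that of Cyp2a12, had 1 region in every list but that of female B6.

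The listed genes that serve or regulate P450 enzymes had DHS in all 4 lists, as did 61.6% of all protein-coding genes. The 3 electron donor genes had a median of 9 regions, and Por, the reductase that feeds P450 enzymes, had 13. The 4 genes of heme synthesis and breakdown had a median of 5 regions, with 9 at Alas1, whose enzyme catalyses the first step of heme synthesis. The 7 receptor and factor genes had a median of 8 regions, among them Nr1i3 (the receptor CAR) with 10 and Hnf4a with 12. The 7 genes of growth hormone signalling had a median of 12 regions, from 4 at Trim24 to 30 at Ghr, the growth hormone receptor. Counts over genes depend on gene length and on the length of each list and are given as descriptions.

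The male lists held 38751 (B6) and 39562 (CAST) peaks and the female lists 26271 and 24888, at genome-wide backgrounds of 15.4 and 14.3 fragments in males and 13.9 and 7.94 fragments in females. Of 6 hepatocyte genes, 5 had a promoter DHS in every list, Serpina1a being the exception. Across all protein-coding genes, 54.3% had a promoter DHS in any list. Promoter DHS at 4 sinusoidal endothelial markers numbered 4, 2, 1 and 1 (male B6, female B6, male CAST, female CAST), at 4 stellate markers 1, 1, 1 and 0, at 4 Kupffer cell markers 0, 0, 1 and 0, at 4 cholangiocyte markers 1 in each list, and at 4 lymphocyte markers 0 in each. No marker of another cell type had the pattern of Cyp2a12, with a promoter DHS in both male lists and neither female list. Most of these markers had no promoter DHS in any list. Only 2.15% of all protein-coding genes had that pattern within 20 kb, so its absence among so few markers was the likely outcome. Whether cell composition differed between the groups was not tested. In nuclei of whole liver, fewer cells with an open site and less cutting per cell cannot be told apart.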

How the data were processed

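The authors digested liver nuclei with DNase I, mapped uniquely aligned paired reads with Bowtie2 (B6 to mm9, CAST to mm9 carrying CAST variants, converted back to mm9), merged the 4 libraries of a group and called peaks with MACS2. For each peak the deposited columns used were the fold enrichment, a ratio of summit pileup to background with a pseudocount of 1 added to both, the −log10 p-value, and a score of the peak, its −log10 q-value, all made by the authors separately in each list. Summit pileup and background were recovered from fold enrichment and p. Pileups lay within 0.02 of whole numbers for 99.9% of male B6 peaks, the lowest share.

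Peaks sharing 1 bp were joined. Log2 differences in fold enrichment were centred on the median of regions in both lists and read against 1.5-fold. No test across samples was possible with 1 list per group. Recovery and joining were tested on simulated data. The genes and gene lists were chosen with earlier results of these data known, and the motifs after the regions were seen. Named were all 4 genes with their promoter regions, regions of a single sex or strain in at least 2 lists, the strongest region of each gene, regions past 1.5-fold in both strains or sexes, and context genes. Alternatives covered overlap, thresholds, list length, depth, window, joining, uniqueness, scale and fold. Python 3.11.15, scipy 1.17.1 and samtools 1.23.1 were used.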

Additional observations from a re-analysis of the deposited data

How the results depend on the processing

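With a stricter threshold (−log10 q of at least 15.7, the median of all peaks) the regions at the Cyp2a genes fell from 2 to 0 in male B6 and from 3 to 0 in male CAST, and with lists cut to the 24888 strongest peaks they fell to 1 and 0. The strain difference in males, 1 region past 1.5-fold (the Cyp2a12 promoter), was 0 under the stricter threshold, 0 with lists of equal size, 0 without centring and 0 at 2-fold. In the first 2 of these settings no region had a peak in both male lists. Of the other alternatives for counts, 54 concerned counts that were 0 to begin with and that these settings could not raise, so they say nothing about stability. In the remaining 17 the counts were within 1.5 times the reported ones, but in male CAST the region upstream of Cyp2a5 was lost with lists scaled to the lowest depth and with 10 kb windows (3 to 2 regions), while both Cyp2a12 regions kept their peaks in both male lists in these 2 settings. The log2 difference of male B6 over male CAST lay between 0.53 and 0.62 at the promoter and between -0.55 and -0.47 in the intron. With an overlap of 50% the intron peaks did not join, so that setting gave no intron value. No paired analysis was possible because the libraries of each group were pooled before peaks were called, which also left no replicate to leave out in turn. The recovered depth limits the female lists most, where a fold enrichment under 1.94 (B6) or 2.24 (CAST) was not called at the genome-wide background.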
